A study of Mus musculus with 55 samples.

Results

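Interferon-stimulated genes are the genes that cells switch on when an interferon binds its receptor. The 37 followed here were taken by symbol from the count tables of whole mouse livers with or without deletion of Rnf43 and Znrf3, E3 ubiquitin ligases that remove Frizzled receptors and so restrain WNT signalling. All 37 were listed in both sequencing batches, among 49997 symbols in batch 1 and 49568 in batch 2. By the response each is best known for, 27 were grouped as type I interferon targets and 10 as interferon gamma targets, a division of convenience since many of them answer to both.

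The mice were C57BL/6 and carried floxed alleles of both genes, recombined in adult animals. In R&Z del mice the deletion was induced in hepatocytes, either by tamoxifen acting on an albumin-driven CreERT2 (all batch 1 libraries and the 7M libraries of batch 2) or by an AAV8 virus carrying Cre under the TBG promoter (the 1M, 3M and PHx libraries of batch 2). R&Z flox littermates, which carry the same floxed alleles, received oil or a null virus. The deletion therefore cannot be told apart from exposure to tamoxifen or to Cre. Livers were taken without damage at 1, 3 and 7 months (1M, 3M, 7M) after induction, at 4, 50 and 170 days of recovery from repeated CCl4 injections (chronic damage, CD), or at 7 and 21 days after partial hepatectomy (PHx). R&Z del and R&Z flox libraries numbered 4 and 4 at 1M, 2 and 5 at 3M, 5 and 5 at 7M, 3 and 3 at each PHx time, 2 and 2 at CD 4d, 2 and 1 at CD 50d, and 2 and 2 at CD 170d. All CD libraries were in batch 1 and came from males, and all 1M and PHx libraries were in batch 2. At 1M, R&Z del replicates 1 and 2 and R&Z flox replicates 3 and 4 were from females. So were R&Z del 3M replicate 4 and R&Z flox 7M replicate 5, of batch 1, and R&Z del PHx 21d replicate 3. The other libraries assigned to a group came from males. For the CD experiment the paper describes a further dosing with tamoxifen, so exposure in those mice was repeated. Both promoters direct Cre to hepatocytes, so other liver cells were not targeted. The methods say in one place that unrecombined littermates received the oil vehicle only, whereas the labels mark the R&Z flox CD samples as chronically damaged, and they were treated as damaged here. Libraries of a group are labelled as separate samples without naming the mouse each came from, so p-values measure the spread between these samples. Whole livers were measured, and in such samples fewer cells of a type and less RNA per cell cannot be told apart.

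Type I interferons signal through the receptor IFNAR to a complex with STAT2 and IRF9 that binds the interferon-stimulated response element, while interferon gamma signals through a receptor of its own. The products recognise viral RNA, degrade it, block its translation, present antigen or recruit lymphocytes. In liver both parenchymal and immune cells can respond.

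The response element can be read in the promoters of the members whose change was best supported. Its core, GAAA followed after any 2 bases by another GAAA, was searched on both strands and with overlaps in 300 bases (250 before and 50 after each RefSeq start site, build GRCm38.p6). The core was present for 3.99% of 27025 genes and for 16 of the 28 members with an entry (57.1%), 11 of 19 type I targets and 5 of 9 interferon gamma targets. Of the 23 members called between the genotypes at CD 4d (a call made for 15.5% of all genes, defined further on) 17 had an entry and 11 of those held the core (64.7%), against 5 of 11 of the others (45.5%). The stretches below are those of the 6 called members with the smallest p among those with the core. They lie upstream of a RefSeq start site of Igtp (chr11:58199467-58199555, plus strand), Ifit1 (chr19:34640730-34640868, plus), Isg15 (chr4:156200820-156200951, minus), Ifit3 (chr19:34583318-34583471, plus), Cxcl10 (chr5:92349038-92349139, minus) and Oas1a (chr5:120907526-120907600, minus). Each is written 5′ to 3′ along the gene, and capitals mark the core, which reads as a pair of TTTC where it lies on the opposite strand.
Igtp: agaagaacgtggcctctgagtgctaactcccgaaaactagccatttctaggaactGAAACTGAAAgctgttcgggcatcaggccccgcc
Ifit1: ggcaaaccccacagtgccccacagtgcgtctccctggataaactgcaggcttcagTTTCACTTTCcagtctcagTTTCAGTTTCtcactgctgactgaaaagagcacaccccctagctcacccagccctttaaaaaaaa
Isg15: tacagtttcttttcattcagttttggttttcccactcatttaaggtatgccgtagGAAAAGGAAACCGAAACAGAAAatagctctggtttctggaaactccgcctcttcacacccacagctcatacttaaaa
Ifit3: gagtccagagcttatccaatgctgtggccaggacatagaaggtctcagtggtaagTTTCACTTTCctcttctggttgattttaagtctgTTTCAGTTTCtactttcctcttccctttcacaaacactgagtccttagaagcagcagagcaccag
Cxcl10: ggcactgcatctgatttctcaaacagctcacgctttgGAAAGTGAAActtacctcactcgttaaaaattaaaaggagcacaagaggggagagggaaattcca
Oas1a: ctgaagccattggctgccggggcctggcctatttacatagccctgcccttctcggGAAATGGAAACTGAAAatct

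Isg15 held 3 overlapping cores, Ifit1, Ifit3 and Oas1a 2 each, and Igtp and Cxcl10 1 each. In the annotation used for counting, Ifit3 starts at 34583119, so its stretch lies inside the counted gene. Oas1a starts there at 120907544, so its stretch overlaps the counted gene. A match of these letters is a description of the promoter and not evidence of binding.

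The members are spread over 16 chromosomes with a few family clusters (mm10 coordinates). Ifit2, Ifit3 and Ifit1 lie side by side on chr19, from 34550550 to 34650009. Oas2, Oas1g and Oas1a lie on chr5 from 120730333 to 120907544, and Oasl2 and Oasl1 on the same chromosome from 114896926 to 114937911. Psmb9, Tap1 and Psmb8 occupy chr17 from 34182030 to 34201454. More than 50% of the 50-base windows of the Ifit3, Oas1a, Oas1g, Apol9a and Apol9b transcripts were shared with a relative, so their separate counts are uncertain, and Igtp, Irgm1, Tap1, Psmb8 and Psmb9 were annotated again on alternate contigs, where reads can be split between copies.

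Depth was 11721687 to 32168223 assigned reads per library (median 22488266). All 37 members had reads in each batch 1 library, whereas in batch 2 between 0 and 11 of them were at 0 counts in a library (median 2). A count of 3, the limit that 0 counts allow, was worth 0.0775 to 0.132 CPM (TMM-scaled read counts, the level used throughout) in batch 1 and 0.0933 to 0.256 CPM in batch 2, for counting error only. Rnf43 and Znrf3 were counted over the whole gene, including exons outside the deleted segment that encodes the RING domain, and these counts do not test the deletion. Znrf3 was in fact higher in mutants, at 12.1 to 26.9 CPM in the R&Z del and 4.55 to 9.61 CPM in the R&Z flox libraries of batch 1, while Rnf43 overlapped (19.0 to 32.9 against 5.03 to 19.99 CPM). Markers of hepatocytes were abundant in all libraries (48237 to 150579 CPM summed over 5 detected genes).

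In undamaged R&Z flox livers at 3M (batch 1, 2 males) the members differed widely in level. Per kilobase of exon, Bst2, which encodes the virus-tethering protein tetherin, stood first at 278 CPM per kb (239 and 318 in the 2 libraries). The immunoproteasome subunit gene Psmb8 followed at 51.7 CPM per kb (48.5 and 54.8), then Ifi35 at 44.0 (43.1 and 44.9) and Apol9b at 37.2 (34.6 and 39.7). Igtp, a GTPase of intracellular defence, and its relative Iigp1 came next at 27.002 and 26.7 CPM per kb, and their libraries overlapped. Psmb8 did not overlap Ifi35, nor Ifi35 Apol9b. The lowest were the 2′-5′ oligoadenylate synthetase Oas2 at 0.316 CPM per kb (0.271 and 0.361) and the antiviral GTPase Mx1 at 0.226 (0.222 and 0.230).

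**Figure D1:**
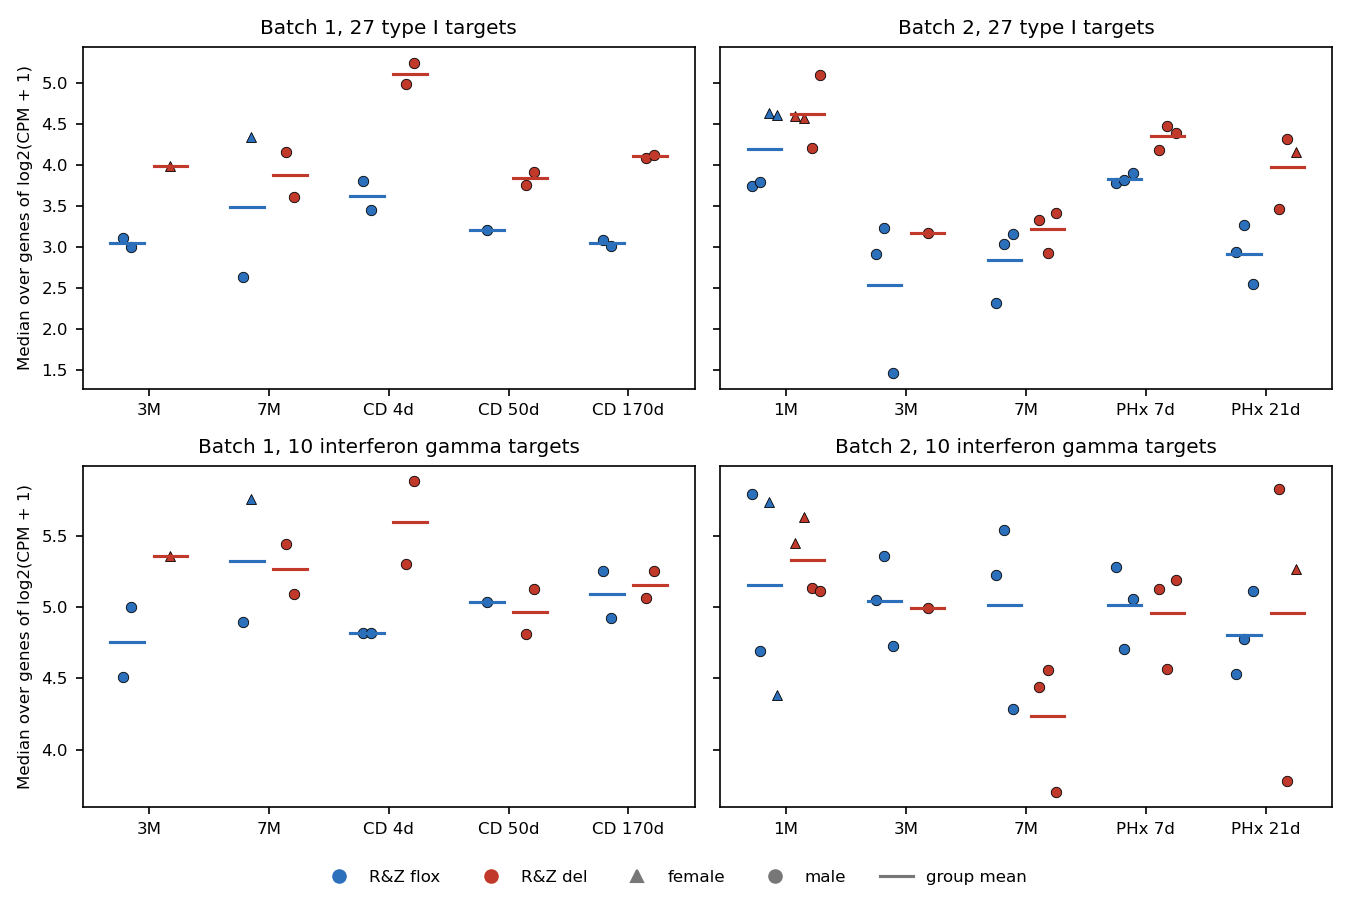
Median over the 27 type I targets (upper panels) and the 10 interferon gamma targets (lower panels) of log2(CPM + 1), 1 point per library, in batch 1 (left) and batch 2 (right), with group means as lines. In batch 1 the type I median of the R&Z del libraries at CD 4d (4.98 and 5.24) lies above all other batch 1 libraries.

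The difference between the genotypes in damaged liver was examined first, because most calls fell there. At CD 4d the type I targets were higher in R&Z del than in R&Z flox livers, and the largest differences were in the oligoadenylate synthetases Oas2, Oasl2 and Oas1g and in Ifi44. A member was called where the Benjamini-Hochberg adjusted p of edgeR's quasi-likelihood test, over all genes, was below 0.1 and the log2 fold change beyond 1. By that rule 23 of the 36 members tested were called and all 23 were higher, against 15.5% of all genes called in either direction and 10.2% called higher. They comprised 20 of 26 type I targets and 3 of 10 interferon gamma targets. The median log2 fold change was 1.94 over type I targets and 0.88 over interferon gamma targets, and 0.06 over all genes tested. In 34 of 36 members both R&Z del libraries lay above both R&Z flox libraries, which held for 31.1% of all genes, and the exceptions were Iigp1 and Gbp2. Mx1 was too low for the filter of this comparison.

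Per library, the median of the type I targets was 3.45 and 3.80 on the log2(CPM + 1) scale in R&Z flox and 4.98 and 5.24 in R&Z del livers at CD 4d. That of the interferon gamma targets was 4.82 in both R&Z flox livers and 5.30 and 5.88 in R&Z del livers. The genotypes did not overlap for either set, and the gap was wider when scaled to library totals, where the type I medians were 3.44 and 3.73 in R&Z flox and 5.42 and 5.84 in R&Z del livers.

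Among the relay factors, Irf7, which amplifies type I interferon production, was at 39.3 and 41.2 CPM in R&Z flox and at 134 and 167 CPM in R&Z del livers. Its log2 fold change was 1.998 ± 0.31 (SE, edgeR adjusted p = 0.00487). Stat2, a subunit of the complex that binds the response element, was at 18.3 and 20.4 against 38.8 and 37.4 CPM and rose by 1.07 ± 0.34 (edgeR adjusted p = 0.0555). Irf9, its DNA-binding partner, was at 29.4 and 23.6 against 33.6 and 42.8 CPM, without overlap, but its log2 fold change of 0.62 stayed under the limit of 1. Of the cytosolic sensors only Zbp1, a receptor for Z-form nucleic acid, was called. Zbp1 was at 9.89 and 9.95 CPM in R&Z flox and at 30.5 and 36.9 CPM in R&Z del livers (log2 fold change 1.86 ± 0.40, edgeR adjusted p = 0.0161). The RNA sensors Ifih1 and Dhx58 had log2 fold changes of 0.97 and 0.71 and were not called.

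Isg15 encodes a ubiquitin-like modifier and Usp18 the protease that removes it and dampens IFNAR signalling. Isg15 was at 14.6 and 12.2 CPM in R&Z flox and at 48.4 and 54.4 CPM in R&Z del livers, a log2 fold change of 2.04 ± 0.20 (edgeR adjusted p = 0.000918). Usp18 was at 17.8 and 12.6 against 51.4 and 65.5 CPM (2.04 ± 0.23, edgeR adjusted p = 0.00127). Both R&Z del libraries were thus well above both controls for each gene, and the same held for the IFIT genes, whose products bind foreign RNA ends and block translation. Ifit1 was at 7.26 and 4.21 against 31.6 and 36.8 CPM and rose by 2.67 ± 0.26 on the log2 scale (edgeR adjusted p = 0.000918). Ifit3 was at 7.19 and 4.82 against 23.8 and 28.4 CPM, and Ifit2 at 2.95 and 2.91 against 9.9997 and 15.7 CPM. Their log2 fold changes were 2.22 ± 0.26 and 2.23 ± 0.44 (edgeR adjusted p = 0.00172 and 0.0119).

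All 5 members of the oligoadenylate synthetase family, which activate RNase L or, in the OASL proteins, act through other routes, were called higher. Oas2 had the largest log2 fold change of the 36, 3.56 ± 0.53, going from 1.26 and 2.29 to 18.6 and 20.6 CPM (edgeR adjusted p = 0.00426). Oasl2 was at 3.58 and 5.44 CPM in R&Z flox and at 25.1 and 45.8 CPM in R&Z del livers (3.07 ± 0.56). Oas1g was at 2.59 and 1.57 against 12.9 and 14.8 CPM (2.83 ± 0.41). The levels of Oas1a were 8.07 and 6.60 against 26.98 and 37.0 CPM (2.22 ± 0.29), and those of Oasl1, an inhibitor of Irf7 translation, 12.4 and 8.92 against 38.7 and 57.2 CPM (2.27 ± 0.27). The edgeR adjusted p of these 4 ran from 0.00176 to 0.00834, and none of them overlapped between genotypes.

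Of the antiviral effectors, Rsad2 (viperin) and Mx2 rose, and Bst2 was not called. Rsad2 was at 13.5 and 4.92 against 25.8 and 24.3 CPM (1.55 ± 0.40, edgeR adjusted p = 0.0294). Mx2 was at 2.81 and 2.15 against 6.92 and 5.50 CPM (1.42 ± 0.32, edgeR adjusted p = 0.0190). Bst2, already the most abundant member per length, was at 450 and 340 against 504.4 and 457 CPM, a narrow gap without overlap (0.38 ± 0.23).

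Of the remaining type I targets Ifi44, Xaf1, Apol9a, Rtp4 and Parp14 rose, with log2 fold changes of 2.80, 2.01, 1.89, 1.62 and 1.19. Ifi44 was at 3.68 and 3.01 against 16.6 and 27.1 CPM. Xaf1, which encodes a pro-apoptotic antagonist of XIAP, was at 6.94 in both R&Z flox and at 22.02 and 30.2 CPM in R&Z del livers. Rtp4 was at 24.0 and 27.7 against 59.1 and 89.4 CPM, and Parp14, an ADP-ribosyltransferase, at 14.4 and 13.2 against 26.2 and 32.9 CPM. Apol9a was at 44.8 and 20.9 against 132 and 95.7 CPM. For each of these 5 genes the lower mutant library exceeded the higher control library. The largest edgeR adjusted p of these 5, for Apol9a, was 0.0225. Its near copy Apol9b (0.72) and Ifi35 (0.86) were not called.

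The interferon gamma targets were less uniform. Igtp was at 20.7 and 19.7 CPM in R&Z flox and at 84.7 and 123 CPM in R&Z del livers, a log2 fold change of 2.46 ± 0.24 (edgeR adjusted p = 0.000918). The lymphocyte-attracting chemokine gene Cxcl10 was at 3.89 and 5.23 against 20.6 and 26.4 CPM (2.46 ± 0.29, edgeR adjusted p = 0.00176). Gbp3, a guanylate-binding protein, was at 3.33 and 3.52 against 11.1 and 17.6 CPM (2.16 ± 0.48, edgeR adjusted p = 0.0174). The antigen-presentation genes Tap1, Psmb8 and Psmb9 had log2 fold changes from 0.64 to 0.92, and Irf1 and Irgm1 of 0.70 and 0.84, all without overlap between the genotypes but under the fold limit. Gbp2 was at 2.88 and 7.66 against 6.82 and 15.7 CPM, which overlapped. Iigp1, at 124 and 122 against 112 and 110 CPM, was the only member lower in both R&Z del libraries (-0.05 ± 0.16).

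**Figure D2:**
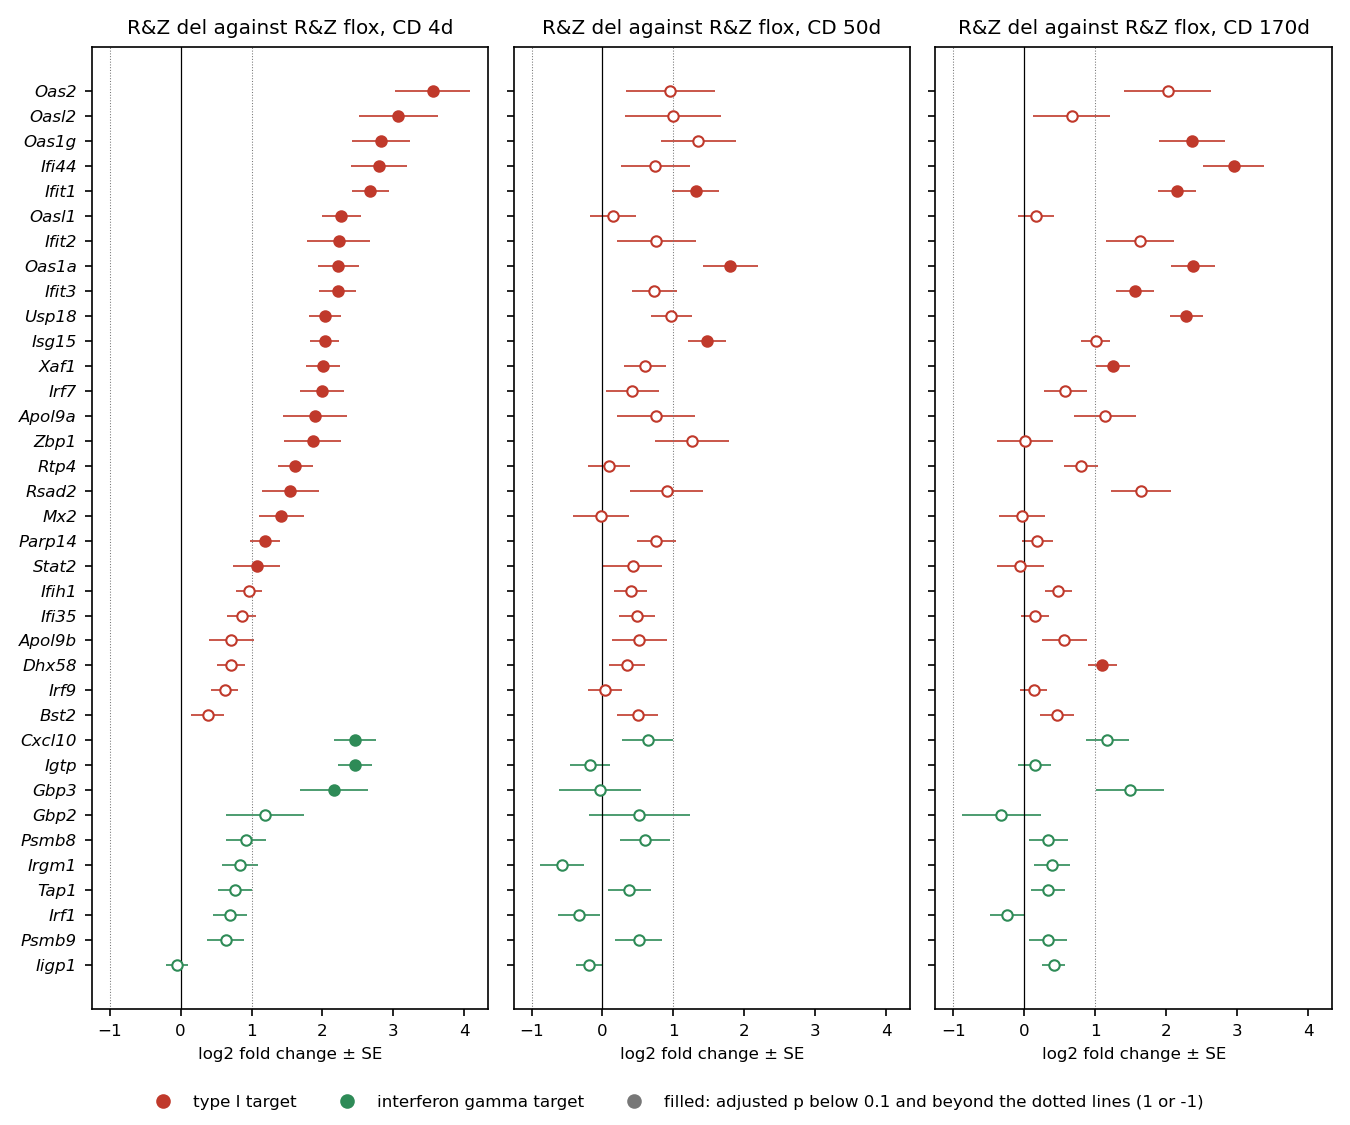
Log2 fold change ± SE for 36 members, mutant over control, at CD 4d, CD 50d and CD 170d (1 panel each), ordered by the CD 4d value within each set, with filled points for called members. At CD 4d 23 points are filled and all but Iigp1 lie to the right of 0, at CD 50d 3 are filled, and at CD 170d 8.

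The genes that make, receive and relay interferon were examined beside the members. Of 55 such genes 34 were tested at CD 4d and 7 were called, all higher, where 15.5% of all genes were called and 10.2% called higher. Adar, which edits double-stranded RNA, was at 10.5 and 11.6 against 26.4 CPM in both mutants (1.35 ± 0.17, edgeR adjusted p = 0.00230). The cytokine gene Il15 was at 2.07 and 2.02 against 5.31 and 5.29 CPM, the sensor gene Sting1 at 2.77 and 6.70 against 11.3 and 24.7 CPM, and the double-stranded RNA receptor gene Tlr3 at 3.23 and 3.76 against 5.92 and 7.55 CPM. Their log2 fold changes were 1.47, 2.02 and 1.04. No receptor gene was called, Ifnar1 being at 21.7 and 24.3 against 21.5 and 27.3 CPM, and Ifnar2 at 125 and 144 against 61.0 and 68.7 CPM with a log2 fold change of -0.96, just inside the limit.

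Transcripts of the interferons themselves were at 0 or low counts. Of 9 interferon genes, Ifna2, Ifna4, Ifnb1, Ifnl2 and Ifnl3 had 0 counts in all 53 libraries, and Ifna1 and Ifne had 0 counts in all 23 libraries of batch 1. Ifnk was at 0 in 18 of 23 libraries of batch 1 (at most 3 counts) and in 20 of 30 of batch 2 (at most 47 counts). Ifng, the gene of interferon gamma, had 0 and 14 counts in the R&Z del and 3 and 1 counts in the R&Z flox libraries at CD 4d. The library with 14 counts had the higher interferon gamma target median of the 2 R&Z del libraries, and also the higher type I median (5.24 against 4.98). The R&Z del library with 0 counts had an interferon gamma median of 5.30, above the 4.82 of both R&Z flox libraries. A relation of Ifng to these levels was not tested. A count of 0 in these libraries allows up to the 3 counts given above and does not show that a transcript was absent.

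Markers of other cell types moved with genotype at CD 4d. All 4 cholangiocyte markers were called higher (summed 160 to 250 CPM in R&Z del and 16.99 to 17.4 CPM in R&Z flox livers), and 2 of 5 tested hepatocyte markers were called lower (48237 to 65937 against 101572 to 102434 CPM). The 10 T and NK cell markers summed to 14.2 to 28.5 against 9.85 to 12.99 CPM. Of these 4 were tested and Cd3g was called higher, at 2.36 and 3.29 against 0.842 and 0.889 CPM. The 4 plasmacytoid dendritic cell markers were too low to test and summed to 5.81 to 6.34 against 1.47 to 1.68 CPM, with Siglech detected in all 4 libraries. Macrophage markers went the other way or overlapped (475 to 865 against 645 to 1226 CPM), with 1 of 8, Marco, called lower, and Col1a1 of the stellate markers was called higher. No neutrophil or B cell marker was called, and Lyve1 and Clec4g of the endothelial markers were called lower. The part of these cell types in the members' levels was not tested.

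How far the levels at CD 4d departed from those of undamaged liver was then compared within each genotype, in batch 1, against the mean of the 3M and 7M groups. In R&Z del livers 17 of 37 members rose, against 27.9% of all genes called in either direction and 19.4% called higher. The 17 were 16 type I targets and Cxcl10. Both CD 4d libraries lay above all 3 undamaged ones for 25 members in R&Z del livers (32.3% of all genes), and above all 4 for 3 members in R&Z flox livers (15.4%). They lay below all undamaged ones for 1 member in R&Z del and 2 in R&Z flox livers, where the share of all genes was not computed. In R&Z flox livers 2 members were called, against 3.84% of all genes, Oas1a higher (1.27 ± 0.30, edgeR adjusted p = 0.0434) and Igtp lower (-1.73 ± 0.33, edgeR adjusted p = 0.0165). The median log2 fold change over the members was 1.04 in R&Z del and -0.01 in R&Z flox livers, and over all genes 0.06 and -0.01.

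Oas2 is an example of a member that was low in undamaged livers of both genotypes. It was at 0.708, 0.486 and 1.34 CPM in the 3 undamaged R&Z del libraries and at 18.6 and 20.6 CPM at CD 4d, a log2 fold change of 4.65 ± 0.64 (edgeR adjusted p = 0.000787). In R&Z flox livers it was at 2.17, 1.62, 1.42 and 4.40 CPM undamaged and at 1.26 and 2.29 CPM at CD 4d, which overlapped. Mx1 likewise went from 0.438, 0.534 and 0.897 CPM to 4.38 and 4.17 CPM in R&Z del livers (2.97 ± 0.58, edgeR adjusted p = 0.00327). In R&Z flox livers Mx1 was at 0.599, 0.621, 0.459 and 1.05 CPM and then at 1.19 and 0.684 CPM.

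For Igtp the level that departed from undamaged liver at CD 4d was that of the controls. Undamaged R&Z flox livers were at 64.4, 44.9, 53.1 and 110 CPM, and fell to 20.7 and 19.7 CPM at CD 4d. Undamaged R&Z del livers were at 107, 129 and 73.5 CPM, which overlapped the 84.7 and 123 CPM seen at CD 4d.

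The difference of the 2 responses was itself tested. It passed an adjusted p of 0.1 for 14 of 37 members in edgeR's quasi-likelihood test, against 17.3% of all genes, and the difference was in favour of R&Z del livers for each of the 14. The largest were Oas2 (5.06 ± 0.84 on the log2 scale, edgeR adjusted p = 0.0114) and Oasl2 (3.00 ± 0.74, edgeR adjusted p = 0.0366). The undamaged mice were older than those at CD 4d, so age and damage cannot be told apart within a genotype. The undamaged livers of each genotype also included a female, and this fit had no sex term. In R&Z del livers at CD 4d 7 of 8 macrophage markers, the 3 tested neutrophil markers and all 4 cholangiocyte markers were also called higher than without damage. So were Siglech, the 1 plasmacytoid dendritic cell marker tested (log2 fold change 3.03), and Cd3g and Nkg7 of 7 tested T and NK cell markers. The stellate markers Reln and Col1a1 were called higher and the hepatocyte marker Fgb lower, and the part of these cell types was not tested. In R&Z flox livers 3 of 8 macrophage markers, Lyve1 and Col1a1 were called higher. Of the 36 other interferon pathway genes tested in R&Z del livers 10 were called higher and 1 lower, a share near the 27.9% of all genes called in that comparison. They included Sting1 (log2 fold change 2.92), the transcription factor gene Irf8 (1.96), Tlr3 (1.63), the receptor genes Il10rb (1.63) and Ifngr1 (1.11), and the cytokine gene Il18, which was lower (-1.37).

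**Figure D3:**
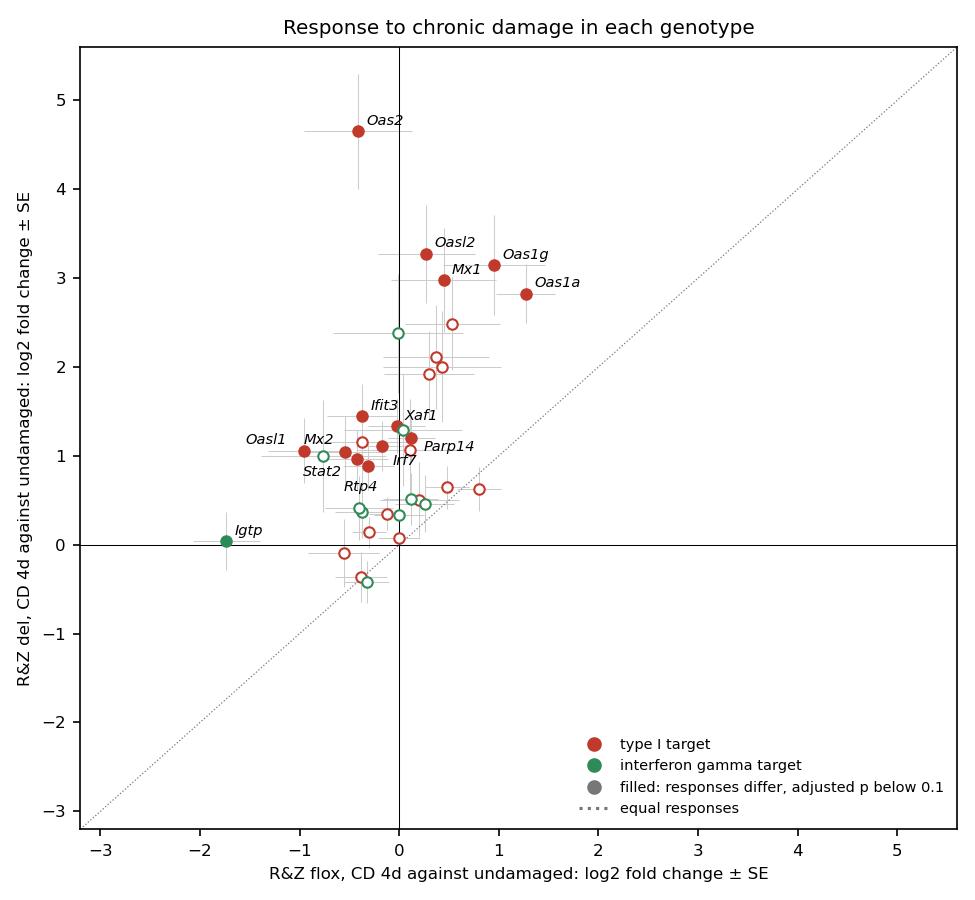
Log2 fold change ± SE of CD 4d against undamaged liver for the 37 members in R&Z flox (horizontal axis) and R&Z del livers (vertical axis), with filled points where the 2 responses differed at an adjusted p below 0.1 and a dotted line of equal response. The 14 filled points lie above the line, with Oas2 at the top (4.65 in R&Z del) and Igtp at the far left (-1.73 in R&Z flox).

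One undamaged R&Z flox library bears on these values. The single female among the 4 undamaged R&Z flox livers of batch 1 (7M replicate 5) was above the 3 males in 34 of 37 members, 24 type I and all 10 interferon gamma targets, which held for 32% of tested genes. Its Ifit1 level was 16.4 CPM where the males were at 6.27, 4.92 and 2.84 CPM, and its Cxcl10 level 18.4 CPM where they were at 2.07, 2.10 and 1.56 CPM. Without that library 6 members in place of 2 were called between CD 4d and undamaged R&Z flox livers, and the share of all genes in that fit was not computed. The type I medians were 2.64, 2.995 and 3.105 in the 3 undamaged R&Z flox males, 4.33 in the female, and 3.45 and 3.80 at CD 4d. The control response given above therefore depends on this library, and the difference of the 2 responses was not refitted without it. The CD comparisons between genotypes do not use it.

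At the later times of recovery fewer members were called between the genotypes. At CD 50d there was a single R&Z flox library, which the fit assumes to vary as the other CD groups do, so these calls have no replicate check on the control side. In that fit 3 of 36 members rose, against 5.42% of all genes called in either direction and 2.53% called higher. Isg15 was at 8.39 CPM in R&Z flox and at 24.3 and 20.6 CPM in R&Z del livers (1.48 ± 0.26, edgeR adjusted p = 0.0504). Oas1a was at 3.46 against 12.5 and 10.8 CPM (1.80 ± 0.39, edgeR adjusted p = 0.0612), and Ifit1 at 4.46 against 10.2 and 11.0 CPM (1.31 ± 0.33, edgeR adjusted p = 0.0786). No call remained without R&Z del replicate 1, and 2 without replicate 2. Both R&Z del libraries were above the R&Z flox library in 26 of 36 members, 21 type I and 5 interferon gamma targets, against 33.8% of all genes. Both were below it in 4, the interferon gamma targets Igtp (52.0 and 60.7 against 66.5 CPM), Irgm1, Iigp1 and Irf1. The share of all genes below it was not computed. Of the pathway genes Tlr3 was called higher (1.70) and Irf2, a repressor of interferon targets, lower (-1.17). Of the markers Col1a1 was called higher and Alb and Vsig4 lower at this time, and their part was not tested.

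At CD 170d 8 of 36 members were called, all type I targets and all higher, against 0.62% of all genes called in either direction and 0.411% called higher. Usp18 was at 7.10 and 5.17 CPM in R&Z flox and at 30.6 and 30.1 CPM in R&Z del livers (2.28 ± 0.23, edgeR adjusted p = 0.00924). Ifit1 was at 3.11 and 3.55 against 16.2 and 13.8 CPM (2.15 ± 0.27, edgeR adjusted p = 0.0198), and Oas1a at 2.46 and 1.27 against 10.9 and 8.96 CPM (2.38 ± 0.31, edgeR adjusted p = 0.0228). The genotypes were far apart for each of these 3 genes. Ifi44 was at 1.49 and 0.609 against 8.66 and 8.17 CPM and had the largest log2 fold change, 2.95 ± 0.43 (edgeR adjusted p = 0.0306). The others were Ifit3 (1.56), Xaf1 (1.25), Oas1g (2.37) and Dhx58 (1.10), with edgeR adjusted p from 0.0620 to 0.0895.

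Of these 8, 7 had also been called at CD 4d and Dhx58, a regulator of RNA sensing, had not. At CD 170d Dhx58 was at 7.503 and 8.47 CPM in R&Z flox and at 17.5 and 17.2 CPM in R&Z del livers. Both R&Z del libraries were above both R&Z flox libraries in 22 of 36 members, 18 type I and 4 interferon gamma targets, against 20.6% of all genes. They were below both in 1, Irf1, at 39.8 and 37.7 CPM in R&Z flox and 33.6 and 32.7 CPM in R&Z del livers. The type I median per library was 3.02 and 3.09 in R&Z flox and 4.09 and 4.12 in R&Z del livers, while the interferon gamma medians overlapped (4.93 and 5.25 against 5.06 and 5.25).

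The count at CD 170d was sensitive to the libraries. It was 1 without R&Z del replicate 2, 4 without R&Z del replicate 1, 5 without R&Z flox replicate 1 and 7 without R&Z flox replicate 2. No marker of another cell type was called at CD 170d, and the cholangiocyte marker sums overlapped (18.8 to 93.8 CPM in R&Z del and 16.2 to 132 CPM in R&Z flox livers).

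Whether the genotype effect itself changed over recovery was tested in the same fit. Between CD 4d and CD 170d it became smaller for 3 of 36 members at an adjusted p below 0.1, a share near the 7.88% of all genes that passed. These were Igtp (-2.31 ± 0.33, edgeR adjusted p = 0.0148), Oasl1 (-2.10 ± 0.37, edgeR adjusted p = 0.0251) and Isg15 (-1.03 ± 0.28, edgeR adjusted p = 0.0838). Between CD 4d and CD 50d it became smaller for Igtp and Oasl1, against 1.68% of all genes. For Igtp the R&Z flox level had returned to 66.5 CPM at CD 50d and to 82.3 and 59.9 CPM at CD 170d. For Oasl1 the R&Z flox level was 21.7 and 31.8 CPM at CD 170d and overlapped the 32.3 and 28.6 CPM of the R&Z del livers.

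**Figure D4:**
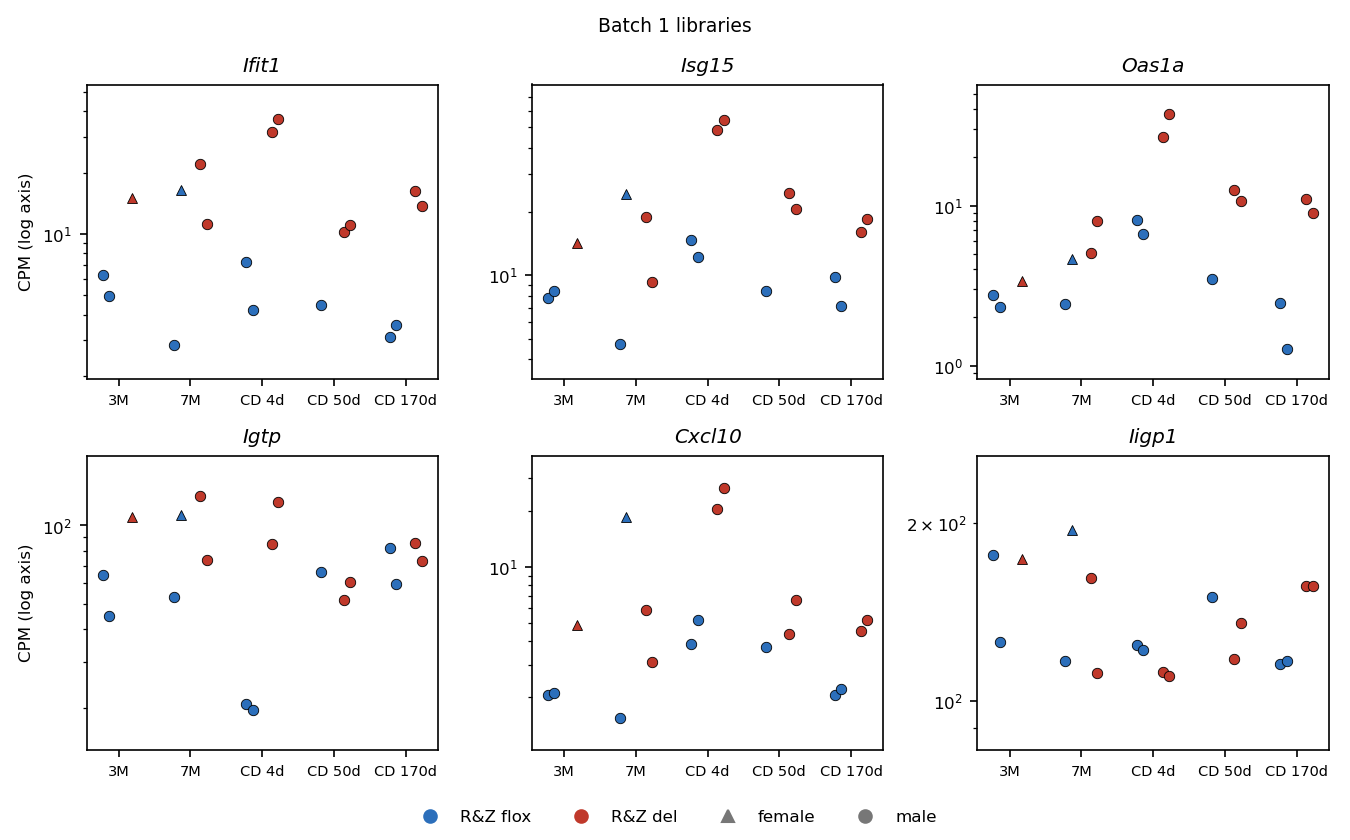
CPM on a log axis of 6 members in each batch 1 library by condition (3M and 7M undamaged, then CD), R&Z flox in blue and R&Z del in red, females as triangles. At CD 170d the genotypes stay apart for Ifit1, Isg15, Oas1a and Cxcl10, and the CD 4d libraries of R&Z flox are lowest for Igtp.

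Compared with undamaged livers of the same genotype at 7M, CD 170d livers had 0 called members in either genotype, with 0% of all genes called in both. In R&Z flox livers 14 members had an unadjusted p below 0.05 in edgeR, all of them lower at CD 170d, against 8.86% of all genes, and DESeq2 called 2. In R&Z del livers 0 had, against 5.91% of all genes, and DESeq2 called 0. The difference of these responses passed an adjusted p of 0.1 for 0 members and 0% of all genes. At an unadjusted p below 0.05 in edgeR there were 7 members, and the share of all genes at that level was not computed. The R&Z flox values depended on the female library described above, as the type I medians show. The male 7M library was at 2.64 and the female at 4.33, against 3.02 and 3.09 at CD 170d. Without the male 8 members were called, and without the female 0.

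Without damage few members were called between the genotypes. In batch 1 the type I medians per library were 3.99 (3M), 4.16 and 3.60 (7M) in R&Z del livers. Those of the R&Z flox males were lower, at 3.105 and 2.995 (3M) and 2.64 (7M), and that of the R&Z flox 7M female was 4.33. In batch 2 the type I medians of the genotypes overlapped at 1M, 3M and 7M. At 1M, 3M and 7M the calls were 0, 0 and 1 of 37, against 0.436%, 0.226% and 0.451% of all genes, in the fit of both batches with sex and batch as terms. At an unadjusted p below 0.05 in edgeR there were 4, 2 and 5 members, against 7.74%, 6.43% and 8.89% of all genes, and DESeq2 called 1, 1 and 1. The median log2 fold change was 0.31, 0.34 and -0.02 over the members and 0.01, -0.09 and -0.02 over all genes. The batches differed in this median, which was 0.81 in batch 1 alone and -0.34 in batch 2 alone at 7M, and -0.59 and 0.24 at 3M, where each batch held 1 R&Z del library. That of batch 1 was from a female, and the sex term of that fit rested on the R&Z flox 7M female and male. The -0.59 thus depends on that R&Z flox female, and without adjustment the type I median of the R&Z del 3M library lay above both R&Z flox libraries. The difference of the genotype effect between these times passed an adjusted p of 0.1 for 0 members and 0% of all genes. At an unadjusted p below 0.05 in edgeR there were 2 to 5 members, and the share of all genes at that level was not computed.

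The single call was Apol9a at 7M. In batch 1 Apol9a was at 57.4 and 72.4 CPM in R&Z flox and at 127 and 172 CPM in R&Z del livers, and in batch 2 at 34.7, 35.4 and 25.8 against 58.3, 28.3 and 128 CPM. The genotypes were apart in batch 1 and overlapped in batch 2 through R&Z del replicate 4, and the fit gave a log2 fold change of 1.27 ± 0.32 (edgeR adjusted p = 0.0957). It was 1.35 in batch 1 alone and 1.19 in batch 2 alone, where the edgeR adjusted p was 0.480 and 0.511, and leaving out any library but R&Z del replicate 4 moved it past 0.1.

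At 3M Apol9a was at 39.2 and 31.6 against 106 CPM in batch 1 and at 36.8, 20.9 and 21.2 against 92.3 CPM in batch 2. Both R&Z del livers thus exceeded all 5 controls of their time point (1.54 ± 0.40, unadjusted p = 0.000732 in edgeR's test across all genes, adjusted p = 0.214). The R&Z del liver of batch 1 was from a female, whereas these controls were all males. At 1M the 4 R&Z flox livers were at 46.7, 66.3, 97.6 and 77.9 CPM and the 4 R&Z del livers at 102, 152, 95.1 and 125 CPM, which overlapped by 1 library of each (0.74 ± 0.35, edgeR adjusted p = 0.617).

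Within batch 1, with 3M and 7M together, 8 members were higher in each of the 3 R&Z del than in each of the 4 R&Z flox livers, against 8.62% of all genes. These 8, all type I targets, were Irf7, Ifih1, Dhx58, Usp18, Bst2, Ifi35, Apol9a and Apol9b. Usp18 was at 41.8, 44.9 and 42.3 CPM in R&Z del and at 13.6, 6.97, 6.97 and 26.6 CPM in R&Z flox livers. In batch 2 it was at 59.3, 66.4, 28.8 and 45.2 against 15.3, 10.2, 13.5 and 41.5 CPM at 1M, and at 3.19, 7.23 and 21.2 against 0.545, 2.80 and 6.75 CPM at 7M, with overlap at both times. Its log2 fold change at 7M in the joint fit was 1.93 ± 0.62 (edgeR adjusted p = 0.301), so it was not called. In batch 2 alone 2 members did not overlap upwards at 1M, Mx1 and Bst2 (2.28% of all genes), and 1 at 7M, Stat2 (4.76% of all genes).

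The batches did not always go the same way. Irf7 in batch 1 was at 64.2 CPM at 3M and at 91.8 and 71.3 CPM at 7M in R&Z del livers, above the 40.0, 46.2, 38.0 and 55.8 CPM of the R&Z flox livers. In batch 2 at 7M it was at 32.4, 31.03 and 35.6 CPM in R&Z del livers, below the 59.7, 54.6 and 43.9 CPM of the R&Z flox livers. Dhx58 and Gbp3 were likewise lower in each R&Z del liver of batch 2 at 7M, and Oas2 in each R&Z del liver of batch 1. At 7M the deletion was induced by tamoxifen in both batches, and what else differed between them was not tested.

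After PHx the type I targets were higher in R&Z del livers as a median per library and seldom gene by gene. At 7 days the median over the type I targets was 3.78 to 3.90 in the 3 R&Z flox and 4.18 to 4.48 in the 3 R&Z del livers, and at 21 days 2.55 to 3.27 against 3.46 to 4.32, without overlap at either time. At 1M, the undamaged reference of these mice, it was 3.74 to 4.63 against 4.21 to 5.09, which overlapped. The interferon gamma medians overlapped at both PHx times.

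By gene, 0 of 37 members were called at PHx 7d and 1 at PHx 21d, against 0.228% and 0.306% of all genes. At an unadjusted p below 0.05 in edgeR there were 4 and 3 members, against 5.93% and 8.67% of all genes, and DESeq2 called 0 and 1. The median log2 fold change over the members was 0.24 and 0.45 and over all genes -0.01 at both times. Apol9a was the one called. At PHx 21d it was at 52.4, 48.7 and 49.3 CPM in R&Z flox and at 164, 113 and 98.4 CPM in R&Z del livers (1.28 ± 0.29, edgeR adjusted p = 0.0777). At PHx 7d it was at 49.8, 75.2 and 61.0 against 115, 104 and 92.8 CPM, also without overlap (0.76 ± 0.28, edgeR adjusted p = 0.758). At 21 days the call was lost on leaving out any 1 library but R&Z del replicate 3.

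At PHx 7d 7 members, all type I targets, were higher in all 3 R&Z del than in all 3 R&Z flox livers (5.48% of all genes), namely Ifih1, Isg15, Usp18, Ifit1, Rsad2, Apol9a and Apol9b. Ifit1 for example was at 7.27, 13.9 and 13.1 against 30.96, 36.7 and 19.0 CPM, and Isg15 at 15.02, 11.7 and 24.5 against 27.2, 36.0 and 25.3 CPM. Mx2 went the other way at 7 days, at 14.9, 10.4 and 13.9 CPM in R&Z flox and 10.2, 2.06 and 2.51 CPM in R&Z del livers. It was the 1 member lower in all 3 R&Z del livers, and the share of all genes lower was not computed. At PHx 21d 6 members were higher in all 3 R&Z del livers (5.13% of all genes), namely Irf7, Oasl2, Mx2, Apol9a, Apol9b and Psmb8, and 0 were lower. Irf7 was then at 43.7, 45.3 and 20.1 against 75.5, 81.5 and 54.0 CPM. All 3 cholangiocyte sums of the R&Z del livers at 7 days lay below those of the R&Z flox livers (4.91 to 23.5 against 28.7 to 62.3 CPM), the reverse of CD 4d, and so did those at 21 days (6.25 to 24.3 against 24.8 to 32.4 CPM). Hepatocyte sums were lower in R&Z del livers without overlap at 7 days (62442 to 88008 against 125880 to 150579 CPM) and at 21 days (56104 to 97903 against 111933 to 137594 CPM). At 7 days the macrophage sums overlapped (69.9 to 177 against 124 to 406 CPM). Alb was called lower in R&Z del livers at both PHx times and also without damage at 1M, 3M and 7M, and the stellate marker Dcn at 7 days. Their part was not tested.

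Against undamaged 1M livers, PHx called 0 members at either time in either genotype, with at most 0.0142% of all genes called. At an unadjusted p below 0.05 in edgeR there were 0 and 3 members in R&Z flox livers at 7 and 21 days (5.94% and 7.03% of all genes) and 2 and 0 in R&Z del livers (5% and 4.87%), and DESeq2 called 0 in each. Over the 16 comparisons of the study 25 of the 37 members were called at least once, and the share of all genes called at least once was not computed. Of the 55 calls 54 were higher values in R&Z del or damaged livers. The exception was Igtp in damaged R&Z flox livers. At CD 4d the 23 calls against R&Z flox and the 17 against undamaged R&Z del livers used the same 2 R&Z del libraries. Those comparisons called 15.5% and 27.9% of all genes, and the calls are not independent.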

How the data were processed

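Total liver RNA was sequenced from Smart-Seq2 libraries, and the deposited files hold raw read counts per gene. According to the submitters' processing notes and the methods, the authors trimmed reads (Trim Galore in the notes, Sickle in the methods), aligned them to mm10 with STAR 2.5.0a and counted with featureCounts 1.5.0-p1 or 1.5.0-p3. Of 55 sample records 53 had counts, and 5 of these libraries, whose labels give no clear group, entered no comparison. No library pair was identical.

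Counts were TMM-scaled and fitted with edgeR 4.0.16 (quasi-likelihood, R 4.3.3, limma 3.58.1) over all genes, after a filter of CPM above 1 in at least 3 libraries (CD comparisons between genotypes, CPM of at least 1 in 6). Undamaged livers of both batches were fitted on 34490 shared symbols with sex and batch, PHx and 1M livers with sex, and batch 1 fits by group. Genes tested numbered 12848, 14043, 11935 (CD) and 13447 (batch 1). Calls were made at 0.1 for the Benjamini-Hochberg adjusted p together with an absolute log2 change over 1, and SE was derived from the F statistic. DESeq2 1.42.0, other scalings, filters, terms and left-out libraries were alternatives. Scripts were tested on simulated data. Members and lists were chosen with earlier results of these data known. Genes were named if called, and others by role. Per-library medians use log2(CPM + 1). An interferon pathway gene is not reported here.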

Additional observations from a re-analysis of the deposited data

Results flagged for a closer look

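The genotype effect on the response to damage differed for 14 members at CD 4d against undamaged liver in batch 1, by the interaction term of edgeR's quasi-likelihood test (adjusted p below 0.1), which 17.3% of all genes also passed. The log2 difference, R&Z del response minus R&Z flox response, was 5.06 for Oas2, 3.00 for Oasl2, 2.53 for Mx1, 2.19 for Oas1g and 2.02 for Oasl1. It was 1.82 for Ifit3, 1.77 for Igtp, 1.58 for Mx2, 1.55 for Oas1a and 1.39 for Stat2. The smallest were 1.36 for Xaf1, 1.28 for Irf7, 1.19 for Rtp4 and 1.08 for Parp14.

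The genotype effect also differed between times of recovery. From CD 4d to CD 170d its log2 difference was -2.31 for Igtp, -2.10 for Oasl1 and -1.03 for Isg15, and from CD 4d to CD 50d it was -2.64 for Igtp and -2.12 for Oasl1. The count of 3 of 36 members at CD 170d is near the share of all genes that passed, 7.88%, and for CD 50d that share was 1.68%.

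In the groups of 4 or more libraries, 25 combinations of group and measure were examined for a library far from the rest, of which chance picks out about 1 in 20, and 2 were found. The type I median of R&Z flox 3M replicate 5 in batch 2 was 1.46 on the log2(CPM + 1) scale where the other libraries of its group reached 3.23. Rnf43 in R&Z del 7M replicate 5 in batch 2 was at 76.1 CPM where the lowest of its group was at 25.9 CPM.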

How the results depend on the processing

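At CD 4d between 20 and 25 members were called under all alternatives, leaving out a library included, and all other counts moved with some setting or stayed at 0. An adjusted p of 0.05 gave 0 at CD 50d, 7M and PHx 21d and 4 at CD 170d. DESeq2's Wald test gave 5 at CD 50d, 13 at CD 170d, 1 at 1M, 1 at 3M and 2 for CD 170d against undamaged R&Z flox livers. No filter on low counts gave 15 at CD 170d, 1 at 3M and 10 for CD 170d against undamaged R&Z flox livers. At 7M the count was 0 with DESeq2 size factors, without the sex or batch term, in males only, in either batch alone and in batch 1 males. Fitting only the 2 compared groups gave 0 at CD 170d, adding 2 unmapped libraries to CD 50d gave 0, and males only gave 6 for CD 4d against undamaged R&Z flox livers. An unadjusted p below 0.05 together with the fold limit gave 3 at PHx 21d, 2 at PHx 7d, and 3 and 2 for PHx 21d in R&Z flox and PHx 7d in R&Z del livers against 1M. Between the genotypes the 3 at PHx 21d were higher in R&Z del livers, and the 2 at PHx 7d were 1 higher and 1 lower. Those against 1M were all lower after PHx.

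Leaving out each library in turn gave 0 to 2 at 7M, 0 to 1 at PHx 21d, 0 to 2 at CD 50d and 1 to 7 at CD 170d. It gave 0 to 6 and 12 to 17 for CD 4d against undamaged R&Z flox and R&Z del livers, 0 being without either CD 4d R&Z flox library, and 0 to 8 for CD 170d against undamaged R&Z flox livers.

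Replicate numbers did not pair the samples, as same-numbered libraries correlated at -0.302 to 0.359 (median -0.029, 16 pairs) and 3 of 16 exceeded 0.1. With the replicate number as a block the counts were 24 at CD 4d and 0 at CD 50d, CD 170d, 7M and PHx 21d. At 3M the block could not be fitted. At CD 170d the pairing crossed after seeing the data gave 8. No called member changed direction. The median log2 fold change over the members changed sign as libraries were left out at 3M (-0.06 to 0.43), at 7M (-0.18 to 0.25), for CD 4d and CD 170d against undamaged R&Z flox livers (-0.27 to 0.33 and -0.83 to 0.21) and for CD 170d in R&Z del livers (-0.06 to 0.20). Arms of 1 to 3 libraries and members with few reads limit what could be detected.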

Other observations

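The 5 libraries of batch 1 whose labels give no clear group were left out of the comparisons. Their type I medians were 3.51, 4.25, 3.86, 4.15 and 3.53 on the log2(CPM + 1) scale, and their interferon gamma medians 5.31, 5.69, 5.18, 5.47 and 5.25.

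Females and males were compared after the values of the female R&Z flox liver had been seen. In the fit of undamaged livers, 6 females against 19 males, 0 of 37 members were called, against 0.918% of all genes, and 4 had an unadjusted p below 0.05 in edgeR's test. The share of all genes at that unadjusted level was not computed. The log2 difference, female minus male, was above 0 for 29 of 37 members and 53.8% of all genes, with a median of 0.37 over the members and 0.05 over all genes.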
